A study of Homo sapiens with 7 samples.

Results

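The 31 genes described here encode the proteins that bring glucose into the cell, split it to pyruvate, reduce pyruvate to lactate, and carry pyruvate into the mitochondrion to be oxidized by pyruvate dehydrogenase, together with the enzymes that switch the phosphofructokinase and pyruvate dehydrogenase steps. They were picked by name from a list of pathway genes, with earlier results of these data known, from the 19978 genes of the deposited table, and all 31 were found and passed the filter on low counts that left 14863 genes for testing. RNA came from HEK-293, an established human embryonic kidney cell line, in 7 samples treated for 48 h under 3 conditions. Control cultures (2 samples) were grown in DMEM of pH 7.4 with the vehicle DMSO. Acidosis cultures (3 samples) were grown in DMEM brought to pH 6.6 with hydrochloric acid, with the same vehicle. SRPIN340 cultures (2 samples) were grown at pH 7.4 with 10 µM SRPIN340, a selective inhibitor of the kinases that phosphorylate SR splicing factors, dissolved in DMSO. The study asked how prolonged mild acidosis and the loss of SR protein phosphorylation change transcription and splicing, and gene counts address only the former. The methods call the samples biological repeats of 1 cell line, each sequenced in 3 replicates, and the deposited table holds 1 column a sample. How the replicates were combined is not given in the sources used here, so the p-values measure the spread between the deposited columns.

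Glycolysis converts glucose to pyruvate in the cytosol with a net yield of ATP, and lactate dehydrogenase regenerates the NAD+ it consumes by reducing pyruvate to lactate, which leaves the cell with a proton. Pyruvate that is not reduced enters the mitochondrion through the MPC1/MPC2 carrier, and the pyruvate dehydrogenase complex (E1 subunits PDHA1 and PDHB, E2 subunit DLAT) turns it into acetyl-CoA for the citric acid cycle. Pyruvate dehydrogenase kinases (PDK1 to PDK4) phosphorylate and inactivate E1, and the phosphatase PDP1 removes the phosphate. The pathway is known for its sensitivity to pH, above all at phosphofructokinase, and for its control by hypoxia-inducible factors and MYC. HEK-293 cells, like most proliferating lines, use glycolysis heavily even with oxygen.

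Library totals lay between 13615816 and 24110460 estimated counts. The acidosis libraries differed from the others in composition: their 100 most abundant genes held 24.1% to 24.8% of the counts, against 15.2% to 15.4% in the other libraries, and their TMM scaling factors were 0.782 to 0.80 against 1.17 to 1.21. The HEK-293 markers PAX2, EYA1, LHX1, NEFL, NEFM, KRT8, KRT18 and VIM were detected, and PAX8 had a mean of at most 0.262 CPM in any group. In acidosis NEFM and VIM were called higher by the test given below, PAX2 was called lower, and the other 5 were not called. Of 11 markers of blood, liver, endothelium, muscle and fibroblasts, 10 had means below 1 CPM in every group, among them the blood marker PTPRC at 0.714 ± 0.112 CPM in acidosis, and the collagen gene COL1A1 was at 30.9 ± 0.0359 CPM in control and 62.3 ± 4.08 CPM in acidosis. PTPRC and COL1A1 were called higher in acidosis. The part of these differences in the results below was not tested, and the values under a scaling that ignores composition are given further on.

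In acidosis, the listed genes of glucose uptake and glycolysis were mostly higher, the 3 listed subunits of pyruvate dehydrogenase were lower, and the listed genes that regulate it or carry pyruvate to it changed in both directions. Values are CPM, that is, estimated counts scaled to a common library total with TMM factors, and each test is the quasi-likelihood test of edgeR, with p adjusted over all 14863 genes by the Benjamini-Hochberg method, with ± after a log2 fold change giving its standard error. A gene was called when its adjusted p was under 0.05 and its fold change over 1 on the log2 scale in either direction, and is said to have risen or fallen when its adjusted p alone was under 0.05. Of the 31 genes, 10 were called higher (SLC2A1, SLC2A3, HK2, GPI, ALDOA, PFKFB3, PGAM1, LDHB, PDP1 and MPC2), where 14.4% of all tested genes were called higher, and 6 were called lower (PFKFB4, BPGM, PDK2, PDK3, PDHB and DLAT), where the background was 19.1%. By adjusted p alone 21 rose, against 32.5% of all genes. When libraries are scaled by total count alone 12 of these 21 pass as higher, where 16.2% of all genes do, while PFKP, PFKFB2, ENO2, LDHA and MPC1 turn negative and PFKL, PFKM, ENO1 and PDK4 stay positive without passing. A further 7 fell, against 34.2% of all genes, and HK1, ALDOC and PDK1 did not pass. The median log2 fold change of the 31 genes was 0.58, and that of all tested genes was -0.05. In absolute size the median was 1.01 for the 31 genes and 0.74 for all tested genes. In bulk RNA, a smaller fraction of cells expressing a gene and less RNA of that gene per cell cannot be told apart. Whether the groups of a gene overlapped is stated for many genes below. The share of all tested genes whose groups did not overlap is not given here, so these statements cannot be set against a background.

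**Figure D1:**
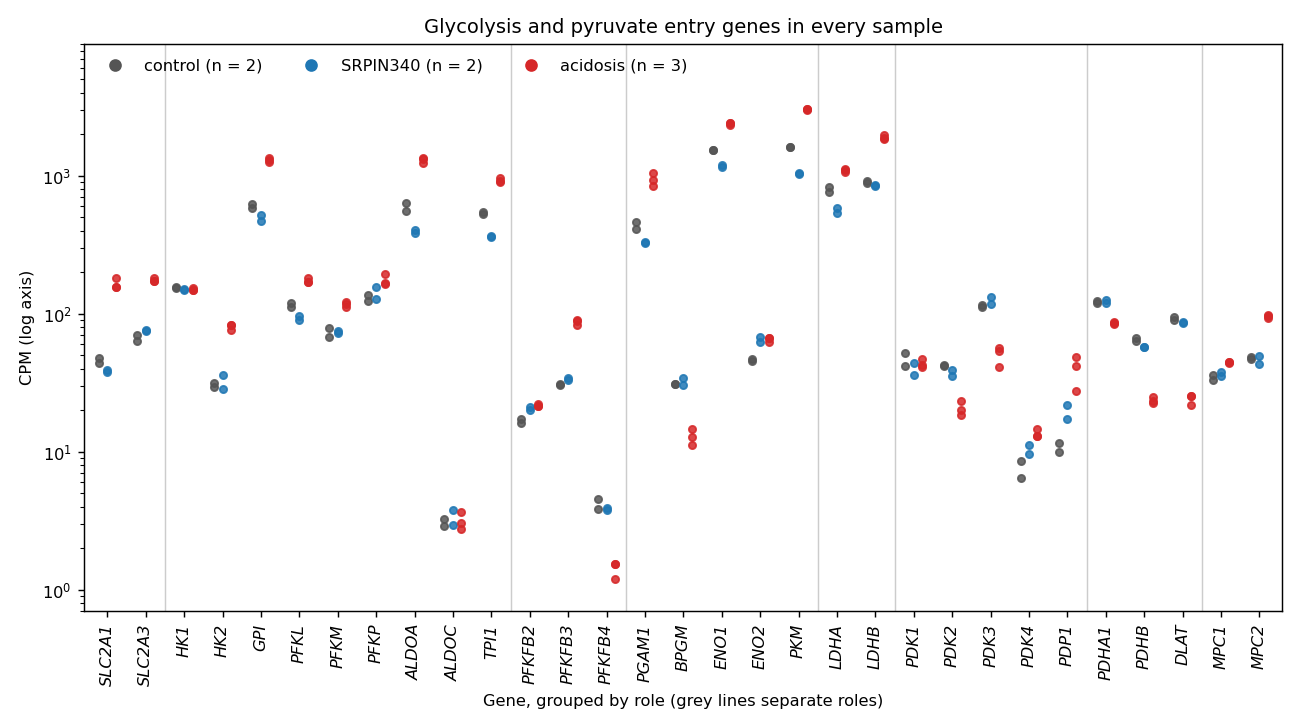
CPM (log axis) of the 31 genes in every sample, ordered by role, with grey points for control (n = 2), blue for SRPIN340 (n = 2) and red for acidosis (n = 3). The red points lie above the grey ones for SLC2A1 (156 to 182 CPM against 44.1 to 47.5 CPM) and below them for DLAT (21.8 to 25.5 CPM against 89.4 to 93.9 CPM).

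Promoter sequences are shown for the genes with the 3 largest changes in each direction among called genes that have a single promoter in the RefSeq table for GRCh38.p14. Some called genes that rose by more than PGAM1 and GPI, such as PDP1 and PFKFB3, are therefore not shown. Each run holds the 250 bases before the transcription start that RefSeq lists, on the gene's strand. Capitals mark the pentamer ACGTG, the core of the hypoxia response element, or its reverse complement. The windows of PGAM1, GPI and PFKFB4 lie inside the GENCODE spans of these genes, whose outermost starts are farther upstream (97426191, 34359480 and 48562015). Sequence before those outermost starts is not shown, and its pentamers were not counted here. SLC2A1 lies on the minus strand (chr1:42958869-42959118), PGAM1 and GPI on the plus strand (chr10:97427568-97427817 and chr19:34364742-34364991), and these genes rose.
SLC2A1: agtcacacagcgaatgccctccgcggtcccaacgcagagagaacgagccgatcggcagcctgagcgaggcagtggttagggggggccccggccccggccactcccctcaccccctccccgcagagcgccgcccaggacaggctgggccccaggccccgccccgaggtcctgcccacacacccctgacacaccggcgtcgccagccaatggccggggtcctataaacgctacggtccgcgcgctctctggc
PGAM1: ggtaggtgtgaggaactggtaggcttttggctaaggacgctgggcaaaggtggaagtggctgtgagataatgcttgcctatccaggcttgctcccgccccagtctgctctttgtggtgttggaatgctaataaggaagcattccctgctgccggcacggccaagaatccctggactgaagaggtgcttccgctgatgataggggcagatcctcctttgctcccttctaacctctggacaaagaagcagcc
GPI: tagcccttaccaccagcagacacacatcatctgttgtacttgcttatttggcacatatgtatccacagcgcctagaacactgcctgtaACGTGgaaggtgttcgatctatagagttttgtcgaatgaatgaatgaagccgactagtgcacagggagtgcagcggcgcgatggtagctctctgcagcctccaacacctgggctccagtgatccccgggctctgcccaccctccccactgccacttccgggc
DLAT lies on the plus strand (chr11:112025158-112025407), PFKFB4 and PDHB on the minus strand (chr3:48556804-48557053 and chr3:58433833-58434082), and these genes fell.
DLAT: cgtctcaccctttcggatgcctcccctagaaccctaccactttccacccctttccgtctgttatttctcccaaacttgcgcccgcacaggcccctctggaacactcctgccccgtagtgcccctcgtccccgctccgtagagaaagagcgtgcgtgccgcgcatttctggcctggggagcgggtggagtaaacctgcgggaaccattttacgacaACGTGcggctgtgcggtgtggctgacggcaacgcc
PFKFB4: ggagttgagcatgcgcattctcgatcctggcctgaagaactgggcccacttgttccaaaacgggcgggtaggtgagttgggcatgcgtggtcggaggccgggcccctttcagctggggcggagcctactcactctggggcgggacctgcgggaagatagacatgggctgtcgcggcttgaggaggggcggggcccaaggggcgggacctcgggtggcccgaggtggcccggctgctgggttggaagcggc
PDHB: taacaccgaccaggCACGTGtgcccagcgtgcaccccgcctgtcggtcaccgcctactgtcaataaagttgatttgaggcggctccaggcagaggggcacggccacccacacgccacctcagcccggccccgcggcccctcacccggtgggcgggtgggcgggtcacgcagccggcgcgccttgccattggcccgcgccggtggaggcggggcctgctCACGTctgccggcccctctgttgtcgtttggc
Counting both strands, the pentamer stood 1 time in the GPI window, starting 162 bases before the start site, 1 time in the DLAT window, and 3 times in the PDHB window, where the farthest pair overlap in a palindrome. It was not in the windows of SLC2A1, PGAM1 and PFKFB4.

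Promoters of 28 of the 31 genes were in that table, over 54 start sites, with windows that reach 50 bases past the start. The pentamer was in at least 1 window of 16 of the 28 genes, where 24.9% of all genes with a promoter held it. By start site, 37.0% of the windows of these genes and 21.4% of all windows held it. Among the called genes it was in 4 of the 8 matched genes that were higher and in 5 of the 6 that were lower, so it was found among genes of both directions. The E-box hexamer CACGTG, which contains the pentamer on both strands, was in 7 of the 28 genes against 8.78% of all genes, the GC box GGGCGG in 25 against 48.3%, and the AP-1 motif TGANTCA in 2 against 9.37%. A match describes the letters of the window and is not evidence of binding.

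Both listed glucose transporter genes rose in acidosis, and SLC2A1 had the second largest increase of the 31 genes. SLC2A1 (ENSG00000117394.24, chr1:42925353-42958893 of GRCh38), the basal glucose transporter GLUT1, was at 47.5 and 44.1 CPM in the control samples and 157, 182 and 156 CPM in the acidosis samples. All 3 acidosis samples exceeded both control samples, a 3.6-fold increase (log2 fold change 1.85 ± 0.10, adjusted p = 2.1e-07). SLC2A3 (chr12:7919230-8019007), the high-affinity transporter GLUT3, was at 62.9 and 69.9 CPM in control and 172, 173 and 183 CPM in acidosis (log2 fold change 1.41 ± 0.079, adjusted p = 3.1e-07). Its transcript shares 38.2% of its 31-base words with SLC2A14, a near-copy at a mean of 1.10 CPM in control and 2.32 CPM in acidosis, and the division of reads between them is uncertain.

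Hexokinase, which traps glucose as glucose 6-phosphate, changed in its inducible form HK2 and not detectably in its constitutive form HK1, which passes as lower only when libraries are scaled by total count alone (-0.61). HK2 (chr2:74834127-74893359) was at 31.6 and 29.4 CPM in control and 82.7, 82.8 and 75.7 CPM in acidosis, without overlap (log2 fold change 1.40 ± 0.12, adjusted p = 4.5e-06). HK1 (chr10:69269984-69401884) was at 153 and 155 CPM in control and 149, 154 and 149.5 CPM in acidosis, and these ranges overlap (log2 fold change -0.03 ± 0.063, adjusted p = 0.67). GPI, which isomerizes glucose 6-phosphate to fructose 6-phosphate, was at 580.2 and 622 CPM in control and 1249, 1289 and 1341 CPM in acidosis (log2 fold change 1.10 ± 0.066, adjusted p = 4.6e-07). Every acidosis sample was above both control samples.

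The phosphofructokinase subunits, which catalyse the committed step of glycolysis, rose by less than the fold limit under TMM, and none passes as higher when libraries are scaled by total count alone (PFKL 0.01, PFKM 0.10 and PFKP -0.15). PFKL, the liver-type subunit, averaged 116 ± 4.57 CPM (SD, n = 2) under control conditions against 173 ± 6.20 CPM (SD, n = 3) at the acid pH (log2 fold change 0.58 ± 0.072, adjusted p = 6.2e-05). PFKM, the muscle type, went from 73.5 ± 8.06 to 117 ± 4.96 CPM (log2 fold change 0.67 ± 0.089, adjusted p = 0.0001). PFKP, the platelet type, went from 129.9 ± 7.88 to 175 ± 15.2 CPM (log2 fold change 0.43 ± 0.10, adjusted p = 0.005), and it missed the threshold without control replicate 2 (0.35 on the log2 scale, adjusted p = 0.058). The groups did not overlap for any of these subunits.

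Larger changes, in opposite directions, were found among the bifunctional enzymes that make and break fructose 2,6-bisphosphate, the allosteric activator of phosphofructokinase. PFKFB3 (chr10:6144934-6254644), whose kinase activity far exceeds its phosphatase activity, was at 30.2 and 30.9 CPM in control and 89.8, 83.0 and 88.5 CPM in acidosis (log2 fold change 1.51 ± 0.088, adjusted p = 4e-07). PFKFB4 (chr3:48517684-48562015) was at 3.85 and 4.56 CPM in control and 1.54, 1.19 and 1.55 CPM in acidosis (log2 fold change -1.55 ± 0.28, adjusted p = 0.00072). PFKFB3 was therefore 2.85-fold higher and PFKFB4 2.92-fold lower, and neither gene's groups overlapped. PFKFB2, the heart-type enzyme, was at 17.1 and 16.2 CPM in control and 21.6, 22.03 and 21.6 CPM in acidosis (log2 fold change 0.38 ± 0.12, adjusted p = 0.016), an increase that missed the threshold without control replicate 2 (0.32 on the log2 scale, adjusted p = 0.11) and that turns to -0.19 under total count scaling.

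Of the enzymes that split the 6-carbon sugar and interconvert the products, ALDOA and TPI1 rose. ALDOA (chr16:30064164-30070457), the main aldolase of proliferating cells, was at 557 and 639 CPM in control and 1328, 1233 and 1346 CPM in acidosis (log2 fold change 1.12 ± 0.075, adjusted p = 9.5e-07). Its transcript shares 89.6% of its 31-base words with an annotated protein-coding gene at the same locus (ENSG00000285043) that was at 4.75 to 13.3 CPM across the 7 samples, and the division of reads between them is uncertain. ALDOC, the brain-type aldolase, was at 2.88 and 3.27 CPM in control and 3.68, 3.03 and 2.75 CPM in acidosis, with overlapping ranges (log2 fold change 0.05 ± 0.28, adjusted p = 0.89). TPI1, triose phosphate isomerase, averaged 536 ± 7.32 CPM (SD, n = 2) under control conditions against 924 ± 37.4 CPM (SD, n = 3) at the acid pH, below the fold limit (log2 fold change 0.78 ± 0.057, adjusted p = 1.7e-06).

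In lower glycolysis the mutases changed in opposite directions while the enzymes of the last steps rose, though by total count ENO1 is at 0.06 without passing and ENO2 turns to -0.07. PGAM1 (chr10:97426191-97433444), phosphoglycerate mutase, was at 408 and 463 CPM in control and 938, 845 and 1046 CPM in acidosis (log2 fold change 1.11 ± 0.094, adjusted p = 4.5e-06). BPGM (chr7:134646811-134679816), which diverts 1,3-bisphosphoglycerate into 2,3-bisphosphoglycerate, was at 30.9 and 30.8 CPM in control and 12.9, 11.1 and 14.6 CPM in acidosis (log2 fold change -1.26 ± 0.13, adjusted p = 2.2e-05). Thus PGAM1 was 2.17-fold higher and BPGM 2.4-fold lower, each without overlap of its groups. PGAM1 shares 48.6% of its 31-base words with PGAM4, which had at most 0.14 CPM in any sample.

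ENO1, the main enolase, had a mean of 1537 ± 4.43 CPM (SD, n = 2) under control conditions against 2378 ± 30.0 CPM (SD, n = 3) at the acid pH (log2 fold change 0.63 ± 0.048, adjusted p = 2.3e-06). ENO2, the neuronal enolase, went from 46.0 ± 1.20 to 65.3 ± 2.56 CPM (log2 fold change 0.51 ± 0.087, adjusted p = 0.00057). PKM, pyruvate kinase, went from 1618 ± 9.13 to 3036 ± 39.4 CPM (log2 fold change 0.91 ± 0.047, adjusted p = 2.1e-07), 1.88-fold, below the fold limit. Gene counts sum the PKM1 and PKM2 splice forms and say nothing of their proportion.

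The lactate dehydrogenase genes rose unequally, and LDHA turns to -0.11 when libraries are scaled by total count alone. LDHB (chr12:21635342-21757857), whose heart-type subunit favours the oxidation of lactate, was at 881 and 915 CPM in control and 1882, 1830 and 1958 CPM in acidosis (log2 fold change 1.07 ± 0.055, adjusted p = 1.8e-07). LDHA (chr11:18394560-18408425), whose muscle-type subunit favours lactate formation and which is a classical hypoxia target, was at 824 and 756 CPM in control and 1068, 1110 and 1103 CPM in acidosis (log2 fold change 0.47 ± 0.061, adjusted p = 9e-05). Both were without overlap, and LDHB was called while LDHA stayed below the fold limit. With pseudogenes included, 75.5% of the 31-base words of LDHB and 25.6% of those of LDHA occur in another annotated gene.

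The pyruvate dehydrogenase complex was lower in acidosis in each of its 3 listed subunits. DLAT (ENSG00000150768.17, chr11:112025408-112064404), the E2 acetyltransferase core, was at 89.4 and 93.9 CPM in control and 25.4, 25.5 and 21.8 CPM in acidosis, a 3.77-fold decrease and the largest of the 31 genes (log2 fold change -1.92 ± 0.094, adjusted p = 1.4e-07). PDHB (ENSG00000168291.13, chr3:58427630-58433857), the E1 beta subunit, was at 62.9 and 67.2 CPM in control and 22.4, 24.9 and 23.2 CPM in acidosis (log2 fold change -1.47 ± 0.093, adjusted p = 6.5e-07). PDHA1 (chrX:19343893-19361718), the E1 alpha subunit that carries the regulatory phosphorylation sites, was at 120.0 and 124 CPM in control and 86.1, 83.7 and 87.7 CPM in acidosis (log2 fold change -0.51 ± 0.07, adjusted p = 0.00013). The groups did not overlap for any subunit, and the decreases were unequal, with PDHA1 below the fold limit. As a share of the library, the 3 genes together held 0.0328% ± 0.0013 (SD, n = 2) of the counts in control and 0.0106% ± 0.00017 (SD, n = 3) in acidosis.

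**Figure D2:**
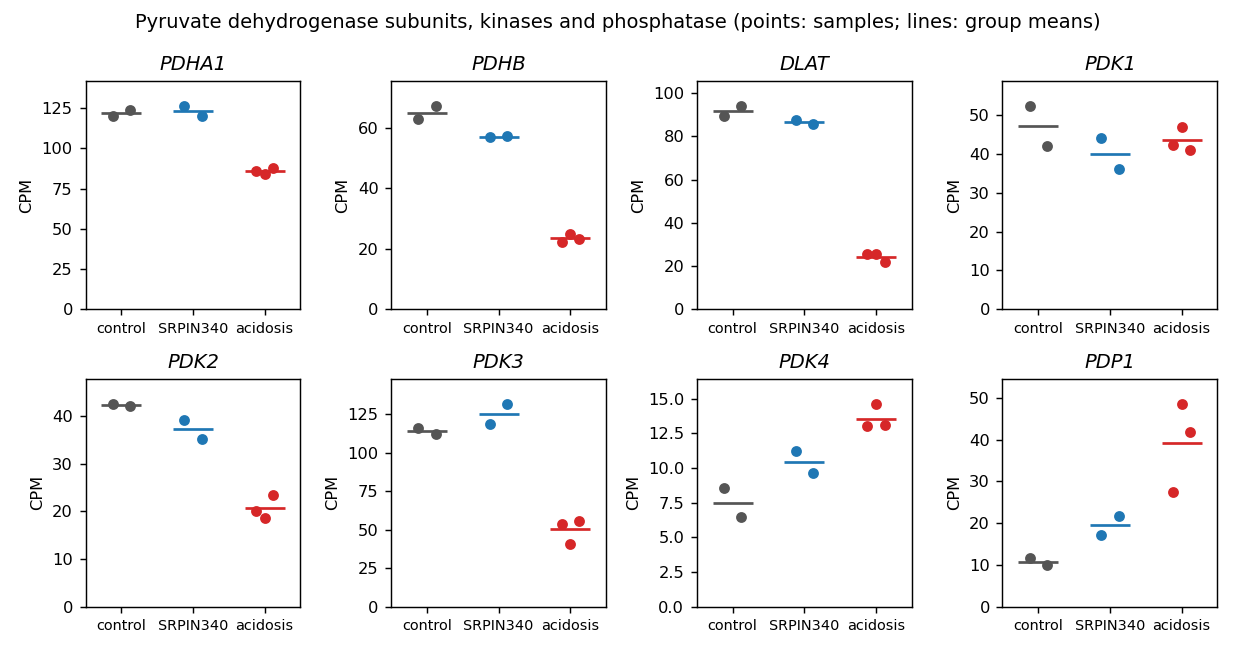
CPM (linear axes from 0) of the pyruvate dehydrogenase subunits, the 4 kinases and the phosphatase PDP1 in every sample, with points for samples and lines for group means. PDHB, DLAT, PDK2 and PDK3 are lower in all 3 acidosis samples than in either control sample, and PDP1 is higher (27.5 to 48.5 CPM against 9.90 to 11.6 CPM).

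The kinases that inactivate the complex did not change in a common direction. PDK3 (chrX:24465244-24550466) was at 116 and 112 CPM in control and 53.8, 41.0 and 56.0 CPM in acidosis (log2 fold change -1.18 ± 0.12, adjusted p = 1.8e-05). PDK2 (chr17:50094737-50112152) was at 42.4 and 42.0 CPM in control and 20.01, 18.6 and 23.4 CPM in acidosis (log2 fold change -1.03 ± 0.12, adjusted p = 4.1e-05), and its fold change fell just inside the limit (-0.96) when acidosis replicate 2 was left out. PDK1 (chr2:172555373-172608669), a hypoxia target, was at 52.3 and 42.1 CPM in control and 42.4, 47.1 and 41.1 CPM in acidosis, with overlapping ranges (log2 fold change -0.12 ± 0.13, adjusted p = 0.45). PDK4 (chr7:95583499-95596516), which is induced by fasting and glucocorticoids in many tissues, was at 8.54 and 6.46 CPM in control and 13.01, 14.6 and 13.1 CPM in acidosis (log2 fold change 0.85 ± 0.18, adjusted p = 0.0019), and its fold change passed the limit (1.06) without control replicate 1. PDK2 and PDK3 thus fell and PDK4 rose from a low level under TMM (0.28 by total count, without passing). PDK1 did not change detectably under TMM but passed as lower by total count (-0.69). Together the 4 kinases held 0.0248% ± 0.0012 (SD, n = 2) of the counts in control and 0.0101% ± 0.00038 (SD, n = 3) in acidosis.

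PDP1, the catalytic subunit of the phosphatase that reactivates the complex, had the largest increase of the 31 genes. Its margin over SLC2A1 (log2 fold change 1.85 ± 0.10) was smaller than its standard error. PDP1 was at 11.6 and 9.90 CPM in control and 27.5, 48.5 and 41.9 CPM in acidosis, 3.63-fold higher (log2 fold change 1.86 ± 0.24, adjusted p = 7.5e-05). The acidosis samples were all above the control samples and spread widely, with a mean of 39.3 ± 10.7 CPM (SD, n = 3).

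Of the mitochondrial pyruvate carrier subunits, which form a heterodimer, MPC2 (chr1:167916675-167937072) was at 47.1 and 48.5 CPM in control and 98.6, 96.7 and 93.5 CPM in acidosis (log2 fold change 1.01 ± 0.09, adjusted p = 6.3e-06). MPC1 (chr6:166364919-166383013) was at 35.8 and 33.0 CPM in control and 44.8, 44.6 and 43.6 CPM in acidosis (log2 fold change 0.37 ± 0.10, adjusted p = 0.0068), missed the threshold without control replicate 2 (0.29 on the log2 scale, adjusted p = 0.074), and turns to -0.21 by total count. MPC2 sat at the fold limit and was just inside it without control replicate 1 (0.98) or acidosis replicate 1 (0.99). The groups of each subunit did not overlap.

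With SRPIN340 at pH 7.4, a small set of glycolytic genes was lower by less than the fold limit. No gene of the 31 was called higher or lower by edgeR or by DESeq2, where 0.128% and 0.195% of all tested genes were called higher and lower by edgeR. At an unadjusted p under 0.05, 5 were higher and 9 lower by edgeR. The share of all tested genes at that threshold is not given here, so these counts cannot be set against a background. By adjusted p alone ENO2 rose, where 0.767% of all genes did, and ALDOA, TPI1, ENO1, PKM and LDHA fell, where 1.53% did. DESeq2 passed these 6 and also PDP1, which was higher, and GPI, PFKL and PGAM1, which were lower. The shares of all genes above are those of edgeR, and the share passing in DESeq2 is not given here. The median log2 fold change of the 31 genes was -0.04 against 0.00 for all tested genes.

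PKM had the smallest adjusted p, with a decrease from 1624 and 1611 CPM in control to 1053 and 1033 CPM with SRPIN340 (log2 fold change -0.63 ± 0.051, adjusted p = 0.00088). ALDOA was at 557 and 639 CPM in control and 406 and 382 CPM with SRPIN340 (log2 fold change -0.60 ± 0.08, adjusted p = 0.0083), and TPI1 at 542 and 531 CPM in control and 363 and 359 CPM with the inhibitor (log2 fold change -0.57 ± 0.062, adjusted p = 0.0038). These decreases are 1.55-fold, 1.52-fold and 1.49-fold. ENO1 was at 1540 and 1533 CPM in control and 1148 and 1186 CPM with SRPIN340 (log2 fold change -0.40 ± 0.052, adjusted p = 0.0079), and LDHA at 824 and 756 CPM in control and 578 and 539 CPM with the inhibitor (log2 fold change -0.50 ± 0.066, adjusted p = 0.0083). ENO2 went the other way, from 45.1 and 46.8 to 68.3 and 62.8 CPM (log2 fold change 0.51 ± 0.094, adjusted p = 0.032). The groups of these 6 genes did not overlap. Neither did those of some genes far from passing, such as HK1 (adjusted p = 0.80 from edgeR) and DLAT (adjusted p = 0.74), so this does not mark out the 6 genes. With a block for replicate number only TPI1 and PKM passed. Calls at 2 samples a group were fragile: PKM alone passed without SRPIN340 replicate 1 or without SRPIN340 replicate 2, ALDOA, TPI1, ENO1 and PKM passed without control replicate 1, and TPI1, ENO1, PKM and LDHA passed without control replicate 2.

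No gene of pyruvate oxidation passed edgeR's test with SRPIN340 in the fit of all 7 samples, although PDP1 had the largest log2 fold change of the 31 genes. DLAT was at 87.7 and 85.7 CPM with SRPIN340 (log2 fold change -0.08 ± 0.10, adjusted p = 0.74), PDHA1 at 126 and 120.3 CPM (log2 fold change 0.01 ± 0.076, adjusted p = 0.95) and PDHB at 56.9 and 57.3 CPM (log2 fold change -0.19 ± 0.10, adjusted p = 0.36). PDP1 was at 17.2 and 21.8 CPM with SRPIN340, above both control samples, without passing edgeR's test (log2 fold change 0.85 ± 0.25, adjusted p = 0.11), though it passed in a fit of only the 2 groups compared and without acidosis replicate 1. The carrier genes MPC1 and MPC2 had log2 fold changes of 0.09 and -0.04. Among the other genes that did not pass, log2 fold changes ran from -0.40 for PGAM1 (adjusted p = 0.075) to 0.48 for PDK4 (adjusted p = 0.23).

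**Figure D3:**
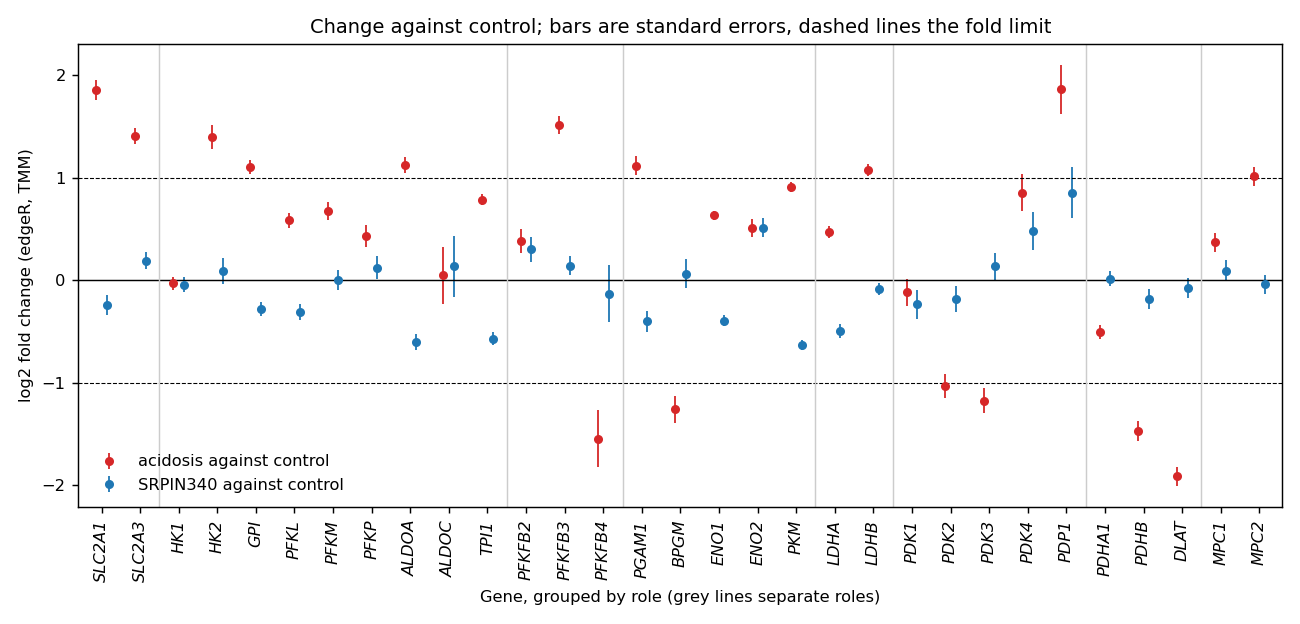
Log2 fold change against control of each of the 31 genes in acidosis (red) and with SRPIN340 (blue), with bars for standard errors and dashed lines at the fold limit. Red points run from -1.92 for DLAT to 1.86 for PDP1, and all blue points lie inside the dashed lines.

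The comparisons with control share the 2 control samples, so their values for a gene are given side by side and not correlated. For ALDOA the log2 fold changes were 1.12 in acidosis and -0.60 with SRPIN340, for PKM 0.91 and -0.63, for TPI1 0.78 and -0.57, for ENO1 0.63 and -0.40, and for LDHA 0.47 and -0.50. The acidosis value of LDHA is the only one of these 10 values that changes sign with total count scaling. ENO2 had log2 fold changes of 0.51 and 0.51 under TMM, and of -0.07 and 0.55 by total count.

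Acidosis set directly against SRPIN340 gave 13 genes called higher, where 14.9% of all genes were, and 5 called lower, where 19.7% were. Under total count scaling 2 genes (SLC2A1 and ALDOA) were called higher and 7 lower, PDK2 and PDHA1 being added, where 5.21% and 37% of all genes were. Besides the 10 genes called higher against control, TPI1, ENO1 and PKM were called, under TMM, with log2 fold changes of 1.36, 1.03 and 1.54 (0.74, 0.41 and 0.93 by total count). LDHA stood at 0.97, just below the limit (adjusted p = 7.4e-07). PFKFB4, BPGM, PDK3, PDHB and DLAT were called lower, with DLAT at -1.83, and PDK2 fell by less than the limit (log2 fold change -0.85 ± 0.12, adjusted p = 0.00016). ENO2 did not differ detectably between the treatments under TMM (adjusted p = 0.97), nor did HK1 (log2 fold change 0.01 ± 0.063, adjusted p = 0.88), and both passed as lower in acidosis by total count (-0.62 and -0.60). PDP1, at 1.01, was inside the limit when any of 5 of the 7 samples was left out, with the lowest value at 0.83 without acidosis replicate 2. ENO1 was at 0.997 without SRPIN340 replicate 1 and MPC2 at 0.955 without SRPIN340 replicate 2.

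Ratios of 2 related genes within a sample do not depend on library scaling, and a transcript length that is the same in all samples cancels from their change. A shift in the mix of long and short transcripts of a gene between groups would not cancel. The part of such shifts in these ratios was not tested. For 13 pairs the log2 ratio of counts, with a prior of 0.5, was compared between groups by a two-sided exact permutation test over samples, which cannot go below p = 0.1 with 3 samples against 2, so no pair could pass 0.05. In acidosis the groups did not overlap for 10 of the 13 pairs, close to the 72.9% of all pairs of tested genes for which they did not, with an exact p of 0.1 for 9 of them (0.144 after adjustment over the pairs) and 0.2 for ENO2/ENO1. The pairs that overlapped were PFKP/PFKM, PFKL/PFKM and PDK3/PDK2.

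The HK2/HK1 log2 ratio was -2.28 and -2.40 in control and -0.85, -0.90 and -0.98 in acidosis, which is 0.198 HK2 counts per HK1 count in control and 0.533 in acidosis. Its change was 1.43. The PFKFB3/PFKFB2 log2 ratio was 0.82 and 0.93 in control and 2.05, 1.91 and 2.03 in acidosis, and PFKFB4/PFKFB2 was -2.15 and -1.83 in control and -3.78, -4.16 and -3.77 in acidosis. Within this family PFKFB3 was higher, and PFKFB4 lower, relative to PFKFB2 in every acidosis sample than in either control sample. LDHA/LDHB was -0.10 and -0.28 in control and -0.82, -0.72 and -0.83 in acidosis, so the linear ratio went from 0.879 to 0.579. LDHA was lower relative to LDHB in every acidosis sample than in either control sample.

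Among the genes of pyruvate entry, PDK1/PDP1 had the widest change. Its log2 ratio was 2.17 and 2.09 in control and 0.62, -0.04 and -0.03 in acidosis, a change of -1.94 from 4.37 to 1.14 PDK1 counts per PDP1 count. Under TMM the log2 fold changes were -0.12 for PDK1 and 1.86 for PDP1. The pair leaves out the kinase genes PDK2, PDK3 and PDK4 and the phosphatase gene PDP2, so it is not the balance of all kinases and phosphatases. The difference from control was 0.93 for PDK1/PDK2 and -0.64 for MPC1/MPC2, the latter from -0.39 and -0.56 to -1.14, -1.11 and -1.10. It was 0.44 for SLC2A1/SLC2A3 and -1.09 for ALDOC/ALDOA. The acidosis samples spread most for PDK1/PDP1, with an SD of 0.38 in the log2 ratio.

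With SRPIN340, where 2 samples against 2 cannot give an exact p below 0.333, the groups also did not overlap for 10 of the 13 pairs, against 52% of all pairs of tested genes, and several of the 13 pairs share a gene. ENO2/ENO1 went from -5.09 and -5.03 in control to -4.07 and -4.24, a difference of 0.91, whereas in acidosis the difference was -0.12. LDHA/LDHB was -0.56 and -0.64 with SRPIN340, a difference of -0.41, and PDK1/PDP1 was 1.36 and 0.73, a difference of -1.08. HK2/HK1 overlapped with control (-2.03 and -2.40).

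**Figure D4:**
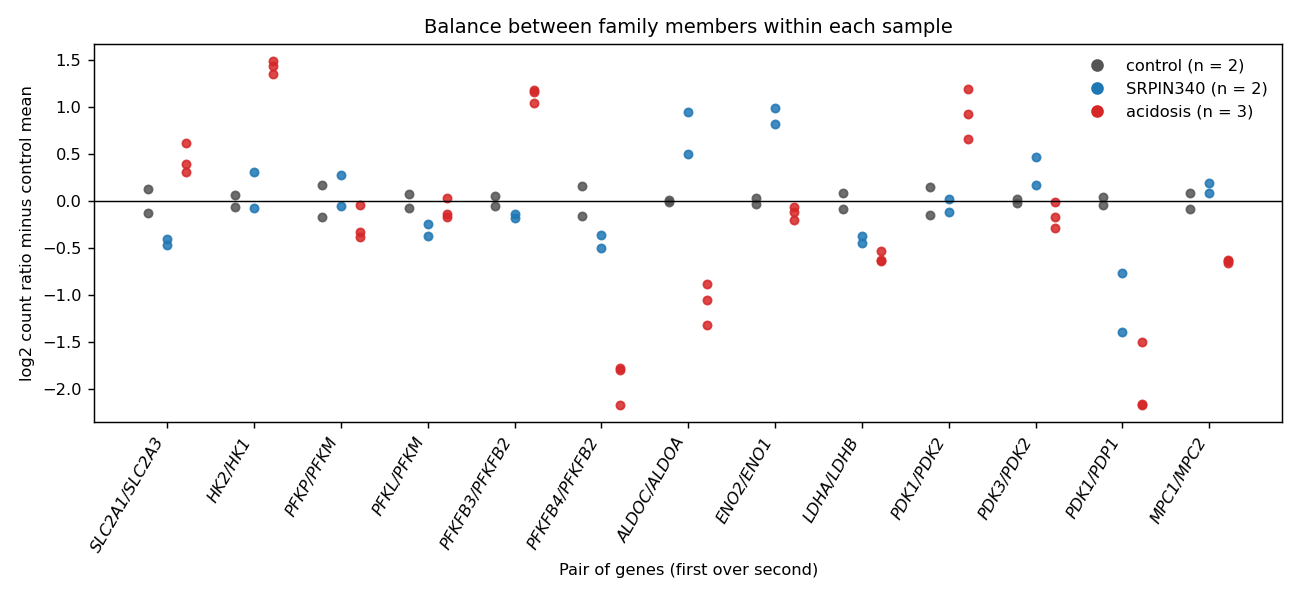
Log2 ratio of counts of 13 gene pairs in every sample, minus the control mean, with grey points for control, blue for SRPIN340 and red for acidosis. HK2/HK1 and PFKFB3/PFKFB2 lie more than 1 above control in all 3 acidosis samples, and PFKFB4/PFKFB2 and PDK1/PDP1 lie more than 1 below.

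The direction of the smaller increases in acidosis depends on how libraries are scaled. TMM assumes that most genes do not change, and scaling by total count alone lowers every acidosis value by a like amount, taking the median of all tested genes from -0.05 to -0.63 and that of the 31 genes from 0.58 to 0.01. Under total count, SLC2A1 (log2 fold change 1.28) and PDP1 (1.29) stayed called higher, SLC2A3, HK2, GPI, ALDOA, PFKFB3, PGAM1, LDHB and MPC2 stayed positive at 0.44 to 0.94 below the fold limit, and PDHA1 joined the genes called lower at -1.08. That makes 2 of the 31 genes called higher and 7 lower, where 5.48% and 35% of all tested genes were. ENO2, LDHA, PFKP, PFKFB2, MPC1 and ALDOC turned negative, at -0.07, -0.11, -0.15, -0.19, -0.21 and -0.53. HK1 and PDK1 passed as lower under that scaling, at -0.61 and -0.69. The 6 genes called lower under TMM were called lower under both scalings, with DLAT at -2.49.

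**Figure D5:**
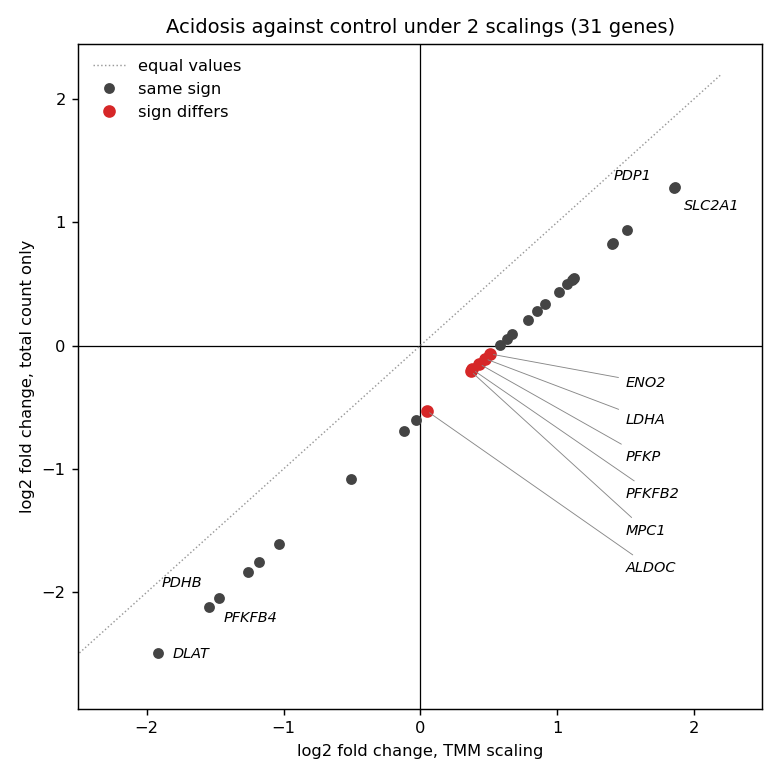
Log2 fold change of the 31 genes in acidosis with TMM scaling (horizontal axis) and with libraries scaled by total count alone (vertical axis), with a dotted line for equal values. Red points mark the 6 genes whose sign differs, and all 31 points lie below the dotted line.

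Taken as a share of the raw library, the 31 genes held 0.982% ± 0.016 (SD, n = 2) of the counts in control, 0.791% ± 0.013 (SD, n = 2) with SRPIN340 and 1.15% ± 0.013 (SD, n = 3) in acidosis. The 18 genes from uptake to lactate accounted for most of this, at 0.907%, 0.713% and 1.10%. The 3 groups of samples did not overlap in either share.

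Per kilobase of the canonical transcript, which allows levels of different genes to be set side by side as an estimate, ENO1 was the most abundant of the 31 genes in control at 863 CPM per kb, followed by PKM at 702 and LDHB at 689. TPI1, ALDOA and LDHA followed at 397, 365 and 352 CPM per kb. PFKFB4, ALDOC and PDK4 were the least abundant, at 1.20, 1.91 and 2.08 CPM per kb. With the longest annotated transcript ENO1 was still first, at 603 CPM per kb, but LDHB (584) came before PKM (536), and LDHA came before TPI1 (304) and ALDOA (236). Among the kinases, PDK3 was at 65.4, PDK2 at 12.6, PDK1 at 3.36 and PDK4 at 2.08 CPM per kb, though PDK3 fell below PDK2 when the longest annotated transcript was used.

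Of 31 further genes of glycolysis and pyruvate dehydrogenase, listed by function, 18 passed the filter on low counts, and in acidosis 3 were called higher and 5 lower, where 14.4% and 19.1% of all tested genes were, with a median log2 fold change of -0.29. Under total count scaling 0 of the 18 were called higher and 9 lower, where 5.48% and 35% of all tested genes were. DLD, the E3 subunit of the pyruvate dehydrogenase complex, had a mean of 132 ± 16.0 CPM (SD, n = 2) under control conditions against 44.1 ± 7.36 CPM (SD, n = 3) at the acid pH (log2 fold change -1.58 ± 0.13, adjusted p = 3.5e-06). TIGAR, which degrades fructose 2,6-bisphosphate, went from 55.8 ± 0.389 to 18.3 ± 1.29 CPM (log2 fold change -1.61 ± 0.11, adjusted p = 9.3e-07). PDP2, the other catalytic phosphatase subunit, went from 43.3 ± 3.38 to 127 ± 22.8 CPM (log2 fold change 1.55 ± 0.14, adjusted p = 7.8e-06). The direction of DLD matches that of PDHB and DLAT, and the direction of PDP2 that of PDP1. The other calls were GAPDH and SLC2A8, which were higher, and SLC2A6, SLC2A10 and PDPR, which were lower. Chosen after its values were seen, GAPDH, the dehydrogenase between TPI1 and the phosphoglycerate kinase step, went from 2212 ± 165 to 5462 ± 362 CPM (log2 fold change 1.30 ± 0.074, adjusted p = 3.4e-07). Its value under total count scaling was 0.73, below the fold limit. PGK1, the gene of that kinase step, went from 426.5 ± 25.7 to 588 ± 29.0 CPM (log2 fold change 0.46 ± 0.070, adjusted p = 0.00025). It was also chosen after its values were seen, and turned to -0.11 under total count scaling. PDHX, the E3-binding protein of the complex and likewise chosen after its values were seen, went from 43.1 ± 0.687 to 53.8 ± 0.809 CPM (log2 fold change 0.32 ± 0.086, adjusted p = 0.0082) and turned to -0.26 under total count scaling, so under TMM the 5 measured structural genes of the complex did not all fall. With SRPIN340, 1 of the 18 passed by adjusted p, where 0.767% of all tested genes rose and 1.53% fell. It was the transporter gene SLC2A12, which was higher (log2 fold change 0.73 ± 0.13, adjusted p = 0.026).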

How the data were processed

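Poly(A)-selected RNA of 7 HEK-293 samples was sequenced. The authors trimmed the reads (Trimmomatic 0.39, Trim Galore 0.6.6), quantified transcripts with Salmon 1.5.1 against a Gencode GRCh38 transcriptome, summed them to genes with tximport (option not given in the sources used here) and deposited 1 column of estimated counts per sample, not normalized. The expected counts were rounded, and edgeR 4.0.16 (R 4.3.3) was fitted to all 7 samples with TMM and filterByExpr. DESeq2 1.42.0 was an alternative, with other scalings, no filter, a replicate block and each sample left out. On simulated data for 14863 genes, edgeR recovered 90.9% of changes of size 1.5 and 93.1% of size 2 on the log2 scale in acidosis, with 5 false calls, and 87% and 93% with SRPIN340, with 7 false calls. The simulation changed 99 to 101 genes at each size, in both directions, and left the others unchanged. In the real acidosis data 32.5% of genes rose and 34.2% fell. The simulated false calls therefore do not give the error of the acidosis calls or of their scaling. Samples were not paired in the main fit because the methods do not use a block. Deviations of same-numbered samples from their group means had r from -0.236 to 0.119. In a group of 2 samples the deviations mirror each other, so these values cannot show whether samples were paired. Replicates differed beyond sampling noise.

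Symbols, coordinates and transcript lengths came from GENCODE release 44, which matched 19977 of the 19978 rows. All 31 genes are named. Values per sample are given for called genes and their family partners, and in other lists the called genes of at least 10 CPM, up to 3 by size of change. The genes, lists and pairs were chosen with earlier results of these data known. Promoters are RefSeq's. Alternative splicing was not analysed here. Figures were drawn with matplotlib 3.10.9 in Python 3.11.15. One of the listed HEK-293 markers is not reported here.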

Additional observations from a re-analysis of the deposited data

How the results depend on the processing

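The 16 calls in acidosis were the same genes with DESeq2, RLE size factors and the replicate block (10 higher, 6 lower). By adjusted p alone 20 genes rose with the replicate block, as PFKFB2 missed the threshold (0.386 on the log2 scale, edgeR adjusted p = 0.0503). With total count only, 2 genes were called higher and, with no fold limit, 21. With SRPIN340, no fold limit gave 1 higher and 5 lower. Against SRPIN340, total count only left 2 called higher. Of the other pathway genes, total count only gave 0 higher and 9 lower, no fold limit 6 and 8, and leaving out a sample 2 to 3 higher and 3 to 5 lower, with 3 without control replicate 2. Total count only turned the log2 fold changes of PFKP, ALDOC, PFKFB2, ENO2, LDHA and MPC1 to -0.147, -0.529, -0.194, -0.0675, -0.105 and -0.207. Leaving out a sample, ALDOC lay between -0.0874 and 0.137 and PDK1 between -0.287 and 0.0407. With the longest transcript, the log2 ratios per kb of PFKL/PFKM and PDK3/PDK2 in control turned to -0.0897 and -0.488. MPC2 left the calls with no filter (0.98), in a fit of only the groups compared (0.99) and without control replicate 1 or acidosis replicate 1.

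The replicate block left 2 genes lower with SRPIN340 by adjusted p (TPI1 and PKM) in place of 5, and 0 higher (edgeR). A crossed block, chosen after seeing the data because same-numbered control and SRPIN340 samples deviated in opposite directions (r = -0.104), left 6 lower and 2 higher (ENO2 and PDP1). No SRPIN340 change passed the fold limit in either. The composition of the acidosis libraries and the treatment cannot be told apart, and without added standards a change of all RNA would go unseen. Genes that share sequence with others carry an assignment error that these counts do not show.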

Other observations

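Genes next to the pathway were described from lists written by function. Of 16 tested genes of the side branches of glucose metabolism (pentose phosphate, hexosamine, serine and glycerol phosphate routes), 1 was called higher and 2 lower in acidosis, where 14.4% and 19.1% of all tested genes were, with a median log2 fold change of -0.09 against -0.05 for all tested genes. TKT, transketolase of the pentose phosphate pathway, went from 161 CPM (mean, n = 2) in control to 346 CPM (mean, n = 3) in acidosis (log2 fold change 1.11, adjusted p = 1.9e-06 from edgeR). Scaled by total count alone, 0 genes of this list were called higher and 5 lower, where 5.48% and 35% of all tested genes were, with TKT at 0.53. PSPH, which makes serine in the last step from 3-phosphoglycerate, went from 28.8 to 5.50 CPM (log2 fold change -2.39, adjusted p = 3.7e-07), and PGM2 from 51.5 to 23.6 CPM (log2 fold change -1.12, adjusted p = 1.3e-05). With SRPIN340 the hexosamine gene GFPT2 was called higher, from 6.08 to 13.2 CPM (log2 fold change 1.11, adjusted p = 0.048).

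Of 4 tested genes of lactate and pyruvate export, BSG, the chaperone of the monocarboxylate transporters, was called higher in acidosis, from 425 to 1086 CPM (log2 fold change 1.35, adjusted p = 2.2e-07), and fell with SRPIN340 to 327 CPM (log2 fold change -0.38, adjusted p = 0.038). Under total count scaling the acidosis value of BSG was 0.78, inside the fold limit. SLC16A7, a monocarboxylate transporter gene, rose with SRPIN340 (log2 fold change 0.81, adjusted p = 0.038). The median of these 4 genes was 0.60 in acidosis, against -0.05 for all tested genes, and 0.03 against -0.63 under total count scaling.

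Of 13 tested hypoxia targets outside the pathway, 2 were called higher and 3 lower in acidosis, close to the 14.4% and 19.1% of all tested genes, with a median of 0.10. Under total count scaling 2 were called higher and 5 lower, where 5.48% and 35% of all tested genes were. ADM went from 11.3 to 66.4 CPM (log2 fold change 2.56, adjusted p = 2.1e-07). BNIP3 went from 30.1 to 8.79 CPM (log2 fold change -1.78, adjusted p = 2.1e-06) and EGLN3 from 20.02 to 6.58 CPM (log2 fold change -1.61, adjusted p = 2.0e-05).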
